A study of Homo sapiens with 10 samples.

Results

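The 9 genes described here encode 6 matrix metalloproteinases (MMP1, MMP2, MMP8, MMP9, MMP14 and MMP15) and 3 of their tissue inhibitors (TIMP1, TIMP2 and TIMP3). They were listed by symbol out of 27 MMP and TIMP genes and 60623 gene identifiers in all, and matched to the gene identifiers of the count files. The list was chosen by levels and fold changes already seen in these libraries, so every level, fold change and call of a member below is a description, and nothing is supported by how many of them were called. All 9 had enough reads to be among the 18450 genes tested.

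The libraries came from A375, an established human melanoma cell line, and measured polyadenylated RNA with a directional kit. The harvest was 72 h after transfection, with small interfering RNA (siRNA) in the knockdown groups. In experiment 1, siRNA against PHF10, a subunit of a SWI/SNF chromatin remodelling complex (PBAF), gave 4 libraries, beside 2 controls. In experiment 2, siRNA against the transcription factor MYC gave 2 libraries, beside 2 controls of its own. The labels call the controls untreated in a field and control siRNA in the protocol, so which of these they were is not known, and no label says that replicates were separate cultures. The p-values therefore measure only the spread between these libraries, which may be technical.

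Matrix metalloproteinases are zinc-dependent endopeptidases, made as inactive proenzymes, that cut collagens and other components of the extracellular matrix. TIMP proteins bind the active site and block it, and the balance of both families is known for its part in melanoma invasion. The collagenases MMP1 and MMP8 cut fibrillar collagen, the gelatinases MMP2 and MMP9 cut denatured collagen and basement membrane collagen, and MMP14 and MMP15 are anchored in the cell membrane. MMP14 together with TIMP2 is known to activate proMMP2 at the cell surface.

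The 6 enzymes share the zinc-binding site of the catalytic domain, and its coding sequence is shown because all 6 transcripts hold it. Each stretch of 33 bases was read from the GENCODE release 29 transcript (GRCh38) and is printed 5′ to 3′ in the coding direction, with the codons of the 3 histidines that hold the zinc in capitals.
MMP1: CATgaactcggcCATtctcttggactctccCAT
MMP8: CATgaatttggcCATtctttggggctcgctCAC
MMP2: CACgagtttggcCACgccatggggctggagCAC
MMP9: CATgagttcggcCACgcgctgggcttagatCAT
MMP14: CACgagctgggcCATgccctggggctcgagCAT
MMP15: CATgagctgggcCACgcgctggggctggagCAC
These lie at chr11:102795549-102795581 on the minus strand for MMP1, chr11:102718517-102718549 on the minus strand for MMP8, chr16:55491827-55491859 on the plus strand for MMP2, chr20:46012453-46012485 on the plus strand for MMP9, chr14:22843283-22843315 on the plus strand for MMP14 and chr16:58040563-58040595 on the plus strand for MMP15. Each stretch lies in a coding exon, exon 8 for MMP2 and MMP9 and exon 5 for the other enzymes. Pairs of stretches were identical at 18 bases (MMP1 and MMP2) to 28 bases (MMP15 with MMP2 and with MMP14), and the collagenases MMP1 and MMP8 at 25.

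The genes lie at chr11:102789920-102798160 (MMP1) and chr11:102711795-102727050 (MMP8), both on the minus strand, chr16:55389700-55506691 (MMP2), chr20:46008908-46016561 (MMP9), chr14:22836557-22849027 (MMP14) and chr16:58025566-58046901 (MMP15), all on the plus strand. The inhibitors lie at chrX:47582313-47586789 (TIMP1, plus strand), chr17:78852977-78925387 (TIMP2, minus strand) and chr22:32801701-32863043 (TIMP3, plus strand). TIMP1 and TIMP3 sit inside the synapsin genes SYN1 and SYN3, which are read from the other strand, and the counts used here keep the strands apart.

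The libraries held 20472465 to 38372289 reads in genes. PHF10 mRNA was at 15 to 18 CPM (counts per 1000000 reads of the library size, scaled by the trimmed mean of M-values) in the 4 knockdown libraries and at 40.1 and 36.6 in their controls (log2 fold change -1.24, SE 0.10, edgeR adjusted p = 0.00105). MYC mRNA was at 16.7 and 13.3 CPM in the labelled MYC knockdown libraries and at 15.0 and 26.5 in their controls, so the groups overlapped (log2 fold change -0.46, SE 0.39, edgeR adjusted p = 0.688); because this does not separate them, they are called by their label throughout. The mean log2 CPM of 25 interferon-stimulated genes was 7.41 to 8.13 in PHF10 knockdown libraries 1 and 2 and in control 1 of experiment 1, 3.13 to 4.62 in the other libraries of that experiment and 2.70 to 2.96 in experiment 2. Melanocyte lineage markers summed to 551 to 966 CPM, nearly all from SOX10, while TYR and MLANA had at most 10 reads in every library. Of 8 markers of neutrophils and macrophages, cells known for MMP8 and MMP9, MPO, ELANE, PTPRC and CSF3R had at most 10 reads in every library. LYZ had 51 to 701 reads, ITGAM 2 to 34, CD14 10 to 30 and CSF1R 0 to 15.

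Levels per exon length (CPM per kilobase of exon) placed the inhibitors TIMP1 and TIMP3 above every enzyme in the means of all 4 groups. The length is that of all annotated exons of a gene merged, which can exceed that of its transcripts, so orders between genes depend on it. In the control of experiment 1 the order was TIMP3 (381 CPM per kilobase), TIMP1 (231), MMP2 (42.8), MMP14 (37.8), TIMP2 (35.6), MMP15 (9.78), MMP8 (3.48), MMP1 (1.14) and MMP9 (0.741), with MMP2 overlapping both MMP14 and TIMP2. In the control of experiment 2 it was TIMP3 (183), TIMP1 (149), MMP14 (105), MMP9 (92.4), MMP2 (78.1), TIMP2 (48.6), MMP1 (6.02), MMP8 (5.79) and MMP15 (4.96), with MMP1 and MMP8 overlapping. MMP9 was thus the lowest of the 9 genes in the control of experiment 1 and the fourth in the control of experiment 2.

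**Figure D1:**
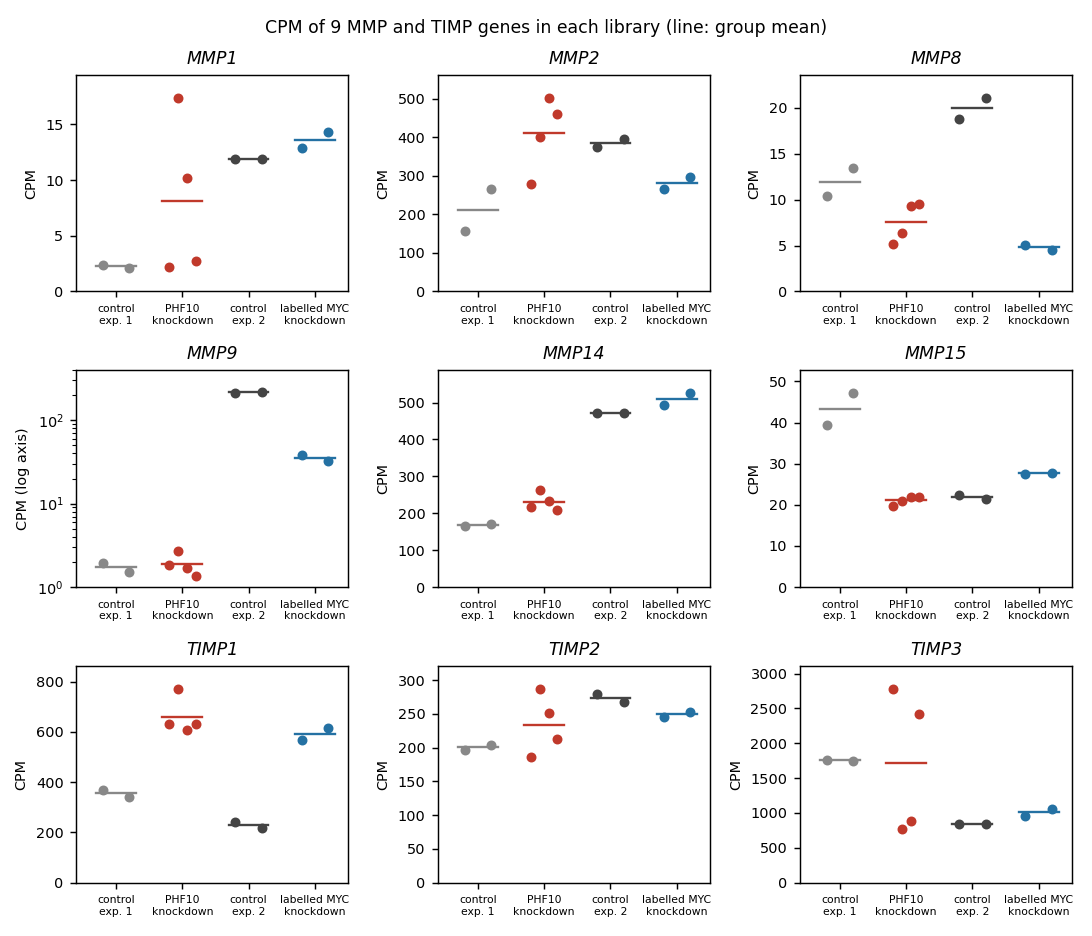
CPM of the 9 genes in each of the 10 libraries, with points for libraries and a line for each group mean; MMP9 is on a log axis and the other panels start at 0. MMP9 lies at 1.35 to 2.68 CPM in the 6 libraries of experiment 1, at 213 and 218 in the controls of experiment 2 and at 37.8 and 32.7 in the labelled MYC knockdown libraries.

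Among the collagenases, MMP1 (interstitial collagenase) was at 2.24, 17.4, 10.2 and 2.78 CPM in PHF10 knockdown libraries 1 to 4 and at 2.37 and 2.12 CPM in their controls. Knockdown libraries 2 and 3 were high, library 1 lay between the controls, and the groups overlapped. The log2 fold change was 1.86 (SE 0.78, edgeR adjusted p = 0.195), on 49 to 51 reads in the controls and 50 to 430 in the knockdown. In experiment 2, MMP1 was at 12.9 and 14.3 CPM in the labelled MYC knockdown libraries and at 11.9 in both controls, without overlap but with a log2 fold change of 0.20 (SE 0.77, edgeR adjusted p = 0.952).

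MMP8, known as the neutrophil collagenase, was at 5.14, 6.32, 9.34 and 9.51 CPM in PHF10 knockdown libraries and at 10.4 and 13.5 CPM in their controls. All 4 knockdown libraries were below both controls, but the log2 fold change of -0.66 (SE 0.24) did not pass the threshold (edgeR adjusted p = 0.146). In experiment 2 it fell, from 18.8 and 21.1 CPM in the controls to 5.02 and 4.57 CPM in the labelled MYC knockdown libraries, a 4.15-fold difference (log2 fold change -2.05, SE 0.30, edgeR adjusted p = 0.0259). These values rest on 657 and 668 reads in the controls and 188 and 133 in the labelled knockdown. The summed level of 8 neutrophil and macrophage markers was also lower in the labelled knockdown, 2.78 and 3.71 against 6.96 and 7.41 CPM, and its part in the result was not tested. LYZ had a mean of 1.76 against 5.73 CPM, CSF1R 0.0935 against 0.362, ITGAM 0.622 against 0.738 and CD14 0.738 against 0.332, while PTPRC, MPO, ELANE and CSF3R had at most 10 reads in each of these libraries.

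The gelatinase MMP2 was at 280, 400, 503 and 460 CPM in PHF10 knockdown libraries and at 157 and 265 CPM in their controls. Every knockdown library was above both controls, library 1 only a little, and the log2 fold change was 0.96 (SE 0.26, edgeR adjusted p = 0.0606). In experiment 2 the labelled MYC knockdown libraries held 267 and 298 CPM, below the controls at 375 and 395 (log2 fold change -0.45, SE 0.29, edgeR adjusted p = 0.573).

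MMP9 had the largest fold difference of the 9 genes in the labelled MYC comparison and between the controls. It fell from 213 and 218 CPM in the controls to 37.8 and 32.7 CPM in the labelled MYC knockdown libraries, 6.12-fold (log2 fold change -2.61, SE 0.23, edgeR adjusted p = 0.0063), on 7469 and 6924 reads in the controls and 1416 and 952 in the labelled knockdown. In experiment 1 it was low, at 1.83, 2.68, 1.70 and 1.35 CPM in PHF10 knockdown libraries and 1.95 and 1.51 CPM in controls, or 31 to 66 reads. The groups overlapped there (log2 fold change 0.13, SE 0.25, edgeR adjusted p = 0.81), and the difference between the 2 knockdown effects was 2.74 on the log2 scale (SE 0.34, edgeR adjusted p = 0.0215). That call was lost without any 1 control of experiment 1 or any 1 library of experiment 2. These fits leave 1 library in a group, and most calls of the difference over all genes were lost in them too. The log2 difference of MMP9 was 2.54 to 2.93 over libraries left out. NGFR, a marker of dedifferentiated melanoma, fell in the labelled MYC comparison from a mean of 127 to 31.9 CPM. The keratinocyte marker KRT14 fell from 11.3 to 3.3 CPM. Each was the only called gene of its list, with 6 and 2 genes tested. Of the 6 dedifferentiation markers, 4 had a positive and 2 a negative log2 fold change (median 0.08). Their summed level was 1300 to 1450 CPM against 1130 to 1170 CPM in controls. Fitted alone, experiment 2 called 3 of the 6 higher and 1 lower, beside 21.9% and 22.6% of all genes. The part of these markers in the MMP9 result was not tested.

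The membrane enzyme MMP14 was at 217, 264, 234 and 209 CPM in PHF10 knockdown libraries and at 165 and 172 CPM in their controls. The groups did not overlap, and the log2 fold change was 0.45 (SE 0.13, edgeR adjusted p = 0.0658). In experiment 2 the labelled MYC knockdown libraries held 493 and 525 CPM and both controls 471 (log2 fold change 0.11, SE 0.14, edgeR adjusted p = 0.817).

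MMP15, the other membrane enzyme, fell in the PHF10 knockdown, to 19.6, 21.0, 21.9 and 21.9 CPM from 39.3 and 47.1 CPM in the controls. The knockdown libraries were nearly alike and below both controls, 2.05-fold in the fit (log2 fold change -1.04, SE 0.11, edgeR adjusted p = 0.00212). In experiment 2 the order was the opposite, 27.6 and 27.7 CPM in the labelled MYC knockdown libraries and 22.4 and 21.5 CPM in controls, but that change did not pass (log2 fold change 0.34, SE 0.13, edgeR adjusted p = 0.293). The difference between the 2 knockdown effects was -1.37 on the log2 scale (SE 0.17, edgeR adjusted p = 0.0215). This call was lost without control 2 of experiment 1 or any 1 library of experiment 2. These fits leave 1 library in a group, and most calls of the difference over all genes were lost in them too. The log2 difference of MMP15 was -1.50 to -1.24 over libraries left out.

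TIMP1, a soluble inhibitor that also binds proMMP9, rose in both knockdown comparisons. In experiment 1 it was at 631, 772, 609 and 630 CPM in PHF10 knockdown libraries and at 370 and 341 CPM in controls, 1.86-fold (log2 fold change 0.89, SE 0.14, edgeR adjusted p = 0.00889). In experiment 2 it was at 568 and 617 CPM in the labelled MYC knockdown libraries and at 240 and 218 CPM in controls, 2.58-fold (log2 fold change 1.37, SE 0.16, edgeR adjusted p = 0.0143). The groups did not overlap in either experiment, and the difference between the 2 effects did not pass (log2 -0.48, SE 0.21, edgeR adjusted p = 0.417). As these are bulk libraries, a change in the share of cells that hold a transcript and a change in RNA per cell cannot be told apart for this or any other gene.

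TIMP2, the inhibitor that takes part in proMMP2 activation, was at 186, 287, 251 and 212 CPM in PHF10 knockdown libraries and at 197 and 204 CPM in controls, and the groups overlapped. In experiment 2 it was at 245 and 253 CPM in the labelled MYC knockdown libraries and at 280 and 267 CPM in controls. The log2 fold changes were 0.22 (SE 0.16, edgeR adjusted p = 0.468) and -0.14 (SE 0.19, edgeR adjusted p = 0.834).

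TIMP3, the inhibitor that is bound to the matrix, split the PHF10 knockdown libraries, at 2780, 763, 885 and 2420 CPM against 1760 and 1750 CPM in controls. Libraries 1 and 4 were above the controls and libraries 2 and 3 below, so the log2 fold change of -0.04 (SE 0.47, edgeR adjusted p = 0.976) averages values on either side of the controls. In experiment 2 it was at 962 and 1060 CPM in the labelled MYC knockdown libraries and at 841 CPM in both controls (log2 fold change 0.26, SE 0.54, edgeR adjusted p = 0.895).

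**Figure D2:**
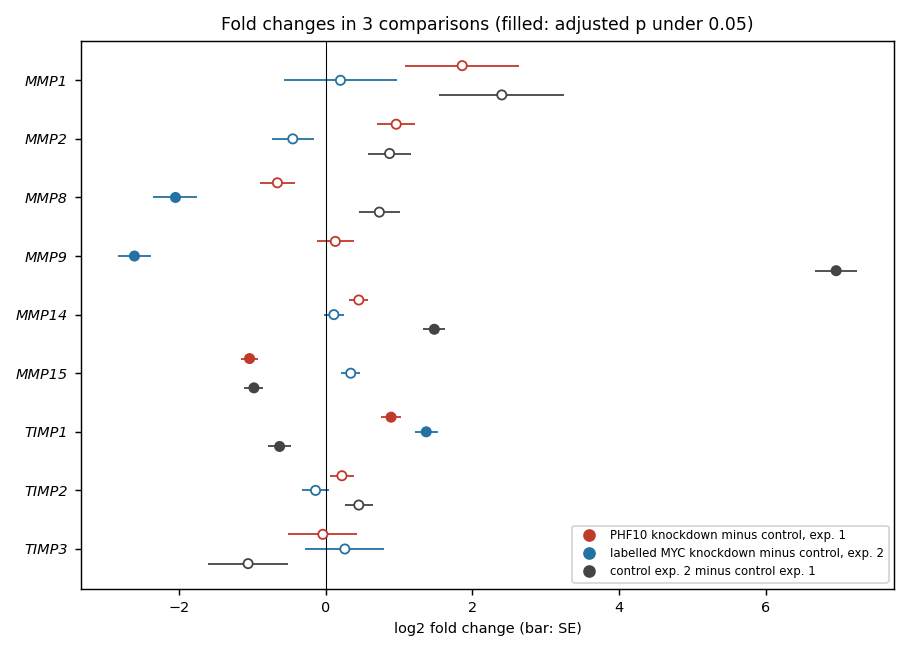
Log2 fold change (x axis, bar: SE) of each of the 9 genes in 3 comparisons, filled where the edgeR adjusted p was under 0.05. MMP15 and TIMP1 are filled for the PHF10 knockdown, MMP8, MMP9 and TIMP1 for the labelled MYC knockdown libraries, and MMP9, MMP14, MMP15 and TIMP1 between the controls.

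In the PHF10 comparison, 1 of the 9 genes was called higher and 1 lower, beside 2.75% of all 18450 genes tested called higher and 3.58% called lower. In the labelled MYC comparison, 1 was called higher and 2 lower, beside 0.282% and 0.211% of all genes. For the difference between both effects, 1 was called higher and 1 lower, beside 0.260% and 0.125%. The median log2 fold change of the 9 genes was 0.22 in the PHF10 comparison and 0.11 in the labelled MYC comparison, beside 0.02 and -0.01 over all genes. The comparisons use separate controls but a shared estimate of spread.

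How many were called depended on that shared spread. Fitted alone, experiment 1 (a biological coefficient of variation of 26.7%) called MMP15 lower (edgeR adjusted p = 0.043) and no member higher, beside 0.129% of genes called higher and 0.151% lower; TIMP1 was then at edgeR adjusted p = 0.0907. Fitted alone, experiment 2 (3.39%) called 4 members higher and 4 lower, all but MMP1, beside 21.9% of genes called higher and 22.6% lower. Without any 1 of the 4 libraries of experiment 2, which leaves 1 library in a group, the calls of MMP9, MMP8 and TIMP1 in the labelled MYC comparison were lost, with edgeR adjusted p of 0.0709 to 0.133 for MMP9, 0.209 to 0.347 for MMP8 and 0.155 to 0.293 for TIMP1. The call of TIMP1 in the PHF10 comparison was lost without control 1 (edgeR adjusted p = 0.0621) or control 2 (0.0905) of experiment 1. With a term for the 3 libraries of high interferon-stimulated gene level, MMP2 (edgeR adjusted p = 0.00471), MMP14 (0.0241) and MMP8 (0.0143) also passed in the PHF10 comparison. Over all genes that term raised the calls to 1073 higher and 1394 lower, from 508 and 661.

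The 2 controls differ in experiment, and no fit can tell experiment and culture apart for them. PHF10 mRNA itself was called higher in the control of experiment 2, at a mean of 125 CPM against 38.4 CPM in that of experiment 1. Between the 2 controls, MMP9 was 125-fold higher in experiment 2 (log2 difference 6.96, SE 0.29, edgeR adjusted p = 5.04e-06), and MMP14 2.79-fold higher (1.48, SE 0.15, edgeR adjusted p = 0.000434). MMP15 was 1.97-fold lower (-0.98, SE 0.13, edgeR adjusted p = 0.00172) and TIMP1 1.55-fold lower (-0.63, SE 0.16, edgeR adjusted p = 0.0283), while MMP1 (2.40, SE 0.85), MMP2 (0.87, SE 0.29), MMP8 (0.73, SE 0.28), TIMP2 (0.45, SE 0.19) and TIMP3 (-1.06, SE 0.55) did not pass. Thus 2 of the 9 were called higher and 2 lower, beside 8.05% and 6.60% of all genes; over all genes 1485 were called higher and 1217 lower, against 1028 and 1690 with upper-quartile scaling, which moved the median of all genes to -0.13 from -0.02. Markers of dedifferentiated melanoma were higher as well, with 4 of 6 called higher and none lower. These were NGFR, WNT5A, EGFR and SOX9, and the list had a median log2 difference of 1.64. Both keratinocyte markers tested were called higher, KRT5 (mean 0.161 and 1.91 CPM) and KRT14 (5.7 and 11.3 CPM). KRT1, TP63 and DSG3, of the same list, had at most 10 reads in every library. Of 7 fibroblast markers tested, LUM (mean 15.2 and 2.73 CPM) and PDGFRB (29.3 and 10.7 CPM) were called lower and none higher. Of 5 melanocyte lineage markers tested only DCT was called, lower, and of 4 endothelial markers only PECAM1, higher. None of 4 neutrophil and macrophage markers tested was called. The part of all these markers in the differences of the members was not tested. TIMP1 lost its call without any 1 control or any 1 labelled MYC knockdown library.

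Per length, TIMP1 exceeded MMP9 by 438 to 710 times in PHF10 knockdown libraries and by 288 and 342 times in controls. The same ratio was 1.71 and 1.51 in the controls of experiment 2 and 22.8 and 28.6 in the labelled MYC knockdown libraries, where MMP9 was lower and TIMP1 higher. The ratio of MMP14 to TIMP2 was 1.16 to 1.47 in PHF10 knockdown libraries, 1.06 in both of their controls, 2.54 and 2.62 in the labelled MYC knockdown libraries and 2.12 and 2.23 in their controls. TIMP3 to TIMP1 was 1.47, 0.331, 0.487 and 1.29 in PHF10 knockdown libraries 1 to 4, against 1.59 and 1.72 in controls, and 0.567 and 0.573 against 1.17 and 1.29 in experiment 2. These ratios compare RNA levels per length of merged exons, depend on that length, and were not tested.

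**Figure D3:**
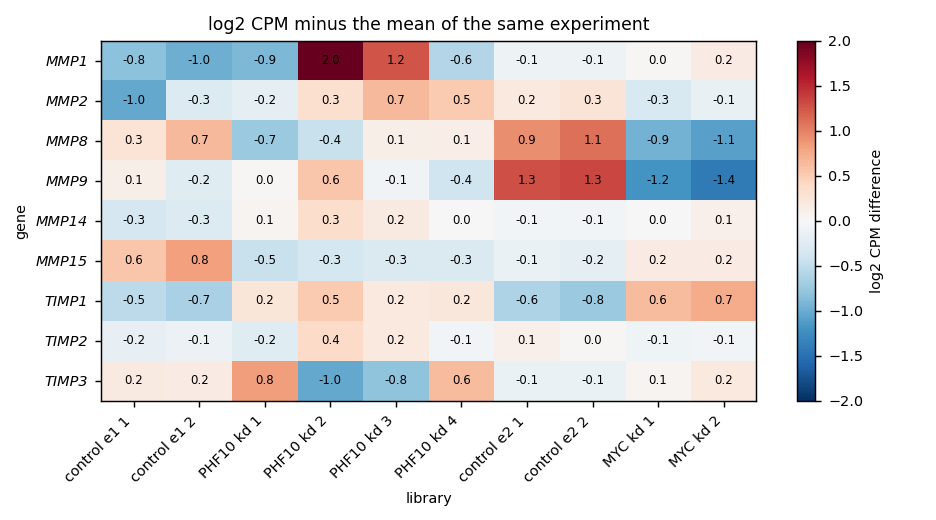
Log2 CPM of the 9 genes in each library minus the mean of that gene over its own experiment, as a colour scale; the mean of experiment 1 holds 4 knockdown and 2 control libraries. PHF10 knockdown libraries 2 and 3 stand above the mean for MMP1 and TIMP2 and below it for TIMP3, with libraries 1 and 4 the other way round.

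Within the PHF10 knockdown, MMP1 and TIMP2 were high in the same libraries, 2 and 3, in which TIMP3 was low. With the mean of each experiment removed, log2 CPM over the 10 libraries correlated at 0.92 for MMP1 with TIMP2, -0.89 for MMP1 with TIMP3 and -0.91 for TIMP2 with TIMP3. MMP8 and TIMP1, which lie on opposite sides of the controls in both experiments, correlated at -0.92. These values describe 10 libraries that share group differences and depth. The split into libraries 1 and 4 against 2 and 3 is not that of the interferon-stimulated genes, which were high in 1 and 2.

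The 3 genes most like each member were picked from 11215 genes of at least 5 CPM by correlation of log2 CPM. The mean of each experiment was removed first, and the 10 libraries share group differences, so the picks are descriptive. The picks were SLC66A1 (Pearson r 0.997), BMP1 (0.993) and MELTF (0.992) for MMP1, and FAXC (0.971), POLR2H (0.97) and CCDC6 (0.969) for MMP8. They were MSANTD3 (0.984), RIPK2 (0.975) and CAPG (0.969) for MMP2, and NGFR (0.977), SLC39A14 (0.973) and THBS1 (0.966) for MMP9. For the membrane enzymes they were RGS17 (0.984), FAM83G (0.983) and NDEL1 (0.98) with MMP14, and PTCH1 (0.985), BCOR (0.984) and IL27RA (0.982) with MMP15. For the inhibitors they were ADCY9 (0.984), TIPARP (0.98) and NEIL1 (0.98) with TIMP1, PLIN2 (0.975), ANKEF1 (0.969) and TNKS1BP1 (0.967) with TIMP2, and CLASP2 (0.989), SNX9 (0.987) and GCLC (0.984) with TIMP3.

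Of the members, 5 had a promoter window of 300 bases in the RefSeq table (GRCh38.p14): MMP8, MMP14, MMP15, TIMP1 and TIMP3. The windows were searched on both strands for the activator protein 1 consensus TGANTCA and its TIMP1 variant TGAGTAA, for the canonical E-box CACGTG and for the ETS core AGGAAG. TIMP1 alone of the 5 held any of them, and its match is shown because TIMP1 was called in both knockdown comparisons; the capitals mark TGAGTAA, 101 bases before the RefSeq start, at chrX:47582324-47582353 on the plus strand.
TIMP1: tggtgggtggaTGAGTAAtgcatccaggaa
AGGAAG began 87 bases before that start and overlaps the end of this stretch. Of all 35097 promoter windows, 2.56% held TGAGTAA, 33.7% AGGAAG, 7.71% TGANTCA and 7.25% CACGTG. In GENCODE release 29 the gene begins further upstream, at 47582313, so the stretch lies inside the annotated TIMP1 gene there. A match is a run of letters and says nothing of binding.

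Of the 18 other MMP and TIMP genes, 11 were tested. In the PHF10 comparison MMP17, a membrane enzyme, fell from 51.6 ± 1.71 (SD, n = 2) to 26.7 ± 7.21 CPM (SD, n = 4; log2 fold change -0.95, SE 0.20, edgeR adjusted p = 0.0249), and none was called higher (by DESeq2 and by limma 1 gene of this list was called in all, and 3 had an unadjusted p under 0.05); fitted alone, experiment 1 called no other MMP. No other MMP passed in the labelled MYC comparison by edgeR, where 6 had an unadjusted p under 0.05 and DESeq2 called 3 and limma 2. Over all 18450 genes, 4184 had an unadjusted edgeR p under 0.05 in the PHF10 comparison and 2435 in the labelled MYC comparison. Fitted alone, experiment 2 called 5 higher (MMP16, MMP10, MMP25, MMP24 and MMP11) and 1 lower (MMP3) of 9 tested, beside 21.9% and 22.6% of all genes. Nearest to the threshold in the fit of both experiments was MMP16, a membrane enzyme, at 544 and 548 CPM in the labelled knockdown and 230 and 238 CPM in controls (log2 fold change 1.22, SE 0.22, edgeR adjusted p = 0.0508). MMP10 had 72 and 65 reads against 11 and 14, and MMP3 had 3 and 4 reads against 67 and 59. MMP13, a further collagenase, had 142, 619, 55 and 12 reads in PHF10 knockdown libraries 1 to 4, against 294 and 18 in controls 1 and 2, so it was highest in the libraries with high interferon-stimulated genes. MMP26, MMP27 and TIMP4 had no read in any library.

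**Figure D4:**
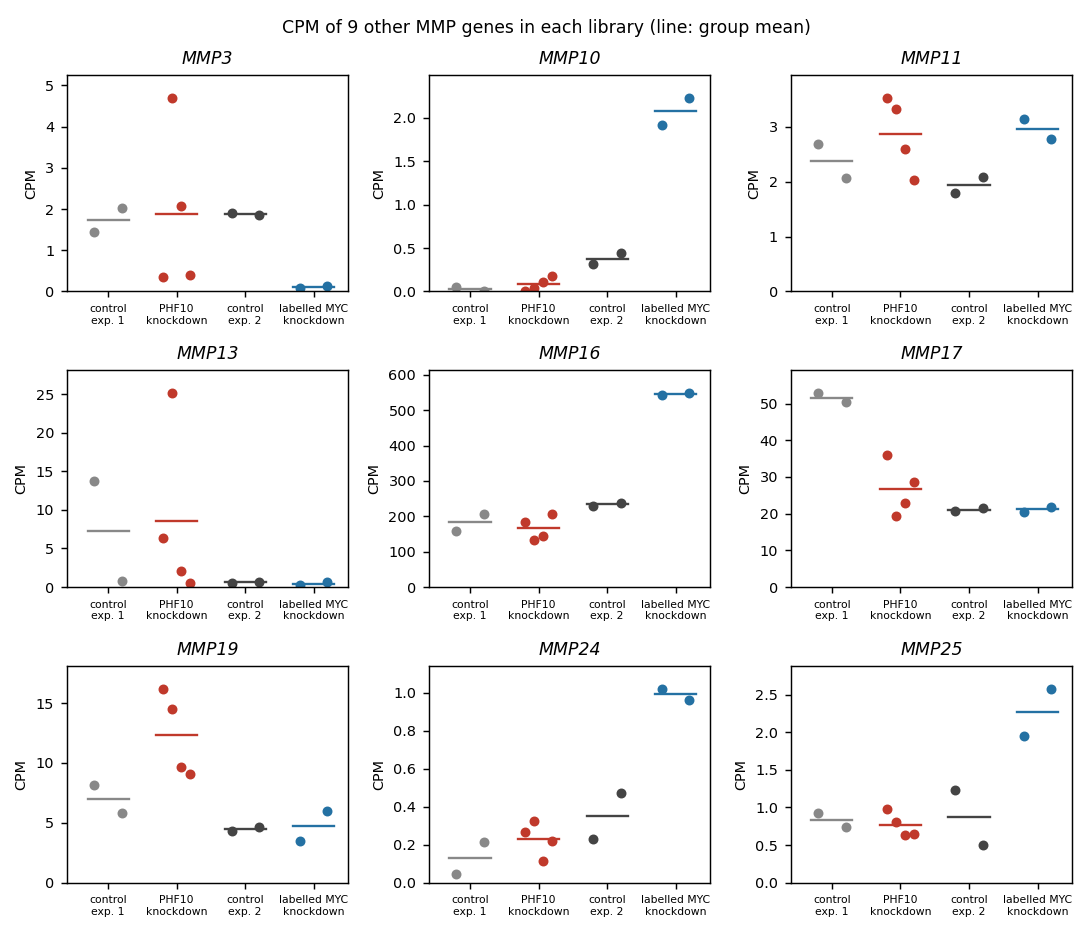
CPM of 9 other MMP genes in each library (points) with the group means (lines), each axis starting at 0. MMP17 is lower in the PHF10 knockdown libraries than in their controls, and MMP16 is higher in the labelled MYC knockdown libraries, at 544 and 548 CPM, than in their controls.

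Related proteases and matrix genes were read from lists chosen with these data known, and their counts stand beside 2.75% of all genes called higher and 3.58% lower in the PHF10 comparison and 0.282% and 0.211% in the labelled MYC comparison. Of 9 ADAM proteases tested, 3 rose and none fell in the PHF10 comparison, led by ADAM19, a sheddase, from 52.1 ± 9.43 (SD, n = 2) to 243 ± 37.1 CPM (SD, n = 4; log2 fold change 2.22, SE 0.19, edgeR adjusted p = 0.00132), with ADAM9 (1.06, SE 0.21) and ADAM8 (0.62, SE 0.16). ADAM19 also rose in the labelled MYC knockdown libraries, from 161 ± 5.09 to 492 ± 64.4 CPM (SD, n = 2 each; log2 fold change 1.61, SE 0.20, edgeR adjusted p = 0.0168). Of 14 ADAMTS proteases tested, ADAMTS12 rose in the PHF10 comparison (log2 fold change 0.90, SE 0.19, edgeR adjusted p = 0.0249) and none fell. In the labelled MYC comparison edgeR called no ADAMTS protease, with 2 of 14 at an unadjusted p under 0.05, beside 2435 of all 18450 genes. DESeq2 and limma called 0. Experiment 2 fitted alone called 5 higher and 4 lower of 14, beside 21.9% and 22.6% of all genes.

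Of 16 activators, partners and other inhibitors tested, TFPI2, a secreted serine protease inhibitor, rose in the PHF10 comparison from 24 ± 9.61 (SD, n = 2) to 109 ± 32.2 CPM (SD, n = 4; log2 fold change 2.19, SE 0.31, edgeR adjusted p = 0.00572), as did the integrin subunit ITGAV (0.56, SE 0.12), and none fell. Of 20 matrix substrates tested, 3 rose and 1 fell in the same comparison. SPARC rose from 2950 ± 370 (SD, n = 2) to 4950 ± 600 CPM (SD, n = 4). The network collagen gene COL4A6 (log2 fold change 3.47, SE 0.62) and the fibrillar collagen gene COL3A1 (3.16, SE 0.57) rose from at most 9 reads per control, and the proteoglycan BGN fell (-1.34, SE 0.28). Of 20 transcription factors known to act on MMP promoters, 4 fell and none rose in that comparison, beside 3.58% and 2.75% of all genes, among them ETS2 (-0.92, SE 0.13), ETS1 (-0.71, SE 0.11) and TWIST1 (-1.43, SE 0.26). ETS1, a factor known to bind MMP promoters, was also lower in the labelled MYC knockdown libraries, at 152 ± 3.6 against 270 ± 4.37 CPM (SD, n = 2 each; log2 fold change -0.83, SE 0.13, edgeR adjusted p = 0.0335). Of 10 cytokines and growth factors that induce MMP genes, LIF (0.89, SE 0.17) and IL1A (1.78, SE 0.37) rose in the PHF10 comparison. Of these lists, ADAM19 alone was called in the PHF10 comparison when experiment 1 was fitted alone (edgeR adjusted p = 0.0349).

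Over the same lists in the labelled MYC comparison, edgeR called none of the 16 activators and partners, the 20 substrates or the 10 cytokines. Of each list 5 had an unadjusted edgeR p under 0.05, beside 2435 of all 18450 genes. DESeq2, fitted to all 39441 genes with a read, called 4, 3 and 2, beside 327 higher and 328 lower of those genes. With limma 1 of each list was called, beside 130 higher and 81 lower of all genes. Fitted alone, experiment 2 called 8 higher and 3 lower of the activators and partners, 7 and 6 of 19 substrates, 4 and 5 of the cytokines, 2 and 3 of the plasminogen genes, 6 and 9 of the transcription factors and 1 and 3 of the ADAM proteases, beside 21.9% and 22.6% of all genes. Of 9 genes of the plasminogen system, which activates several proMMP enzymes, edgeR called none in either knockdown comparison. In each, 1 had an unadjusted edgeR p under 0.05, beside 4184 (PHF10) and 2435 (labelled MYC) of all 18450 genes. DESeq2 called 1 in the PHF10 comparison and 0 in the other, and limma 0 in both. The median log2 fold changes in the PHF10 comparison were -0.03 (ADAM), -0.02 (ADAMTS), 0.05 (activators and partners), 0.18 (plasminogen system), 0.28 (substrates), 0.02 (transcription factors), 0.39 (cytokines) and 0.24 (other MMP genes), beside 0.02 over all genes. In the labelled MYC comparison they were -0.15, 0.08, 0.14, -0.07, 0.09, -0.11, 0.04 and 0.61 in the same order, beside -0.01. Between the controls, experiment 2 was higher for 7 transcription factors and lower for 1, among them FOSL1 (log2 difference 2.33, SE 0.43) and ETS1 (2.30, SE 0.14), and higher for 6 cytokines and lower for 1, among them LIF (2.43, SE 0.20), IL1A (4.09, SE 0.43) and CXCL8 (4.24, SE 0.62). The other lists had 3 higher and 3 lower (activators and partners), 3 higher and 1 lower (ADAMTS, and likewise substrates) and 1 higher and 1 lower (ADAM, plasminogen system and other MMP genes), all beside 8.05% and 6.60% of all genes.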

How the data were processed

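RNA of 10 A375 libraries was read as 100-nt single reads. The authors used cutadapt, STAR and the GRCh38.p13 (hg38) genome, per the submitters' processing notes; their versions, the annotation and filters were not given in the sources used here. Deposited files hold raw read counts per gene, without normalization, for either strand and for both; the column for the opposite strand was used because the same strand held 5.26 to 5.55% of strand-assigned gene reads. Of all reads in a file, 19.1 to 23.6% were not in genes and were left out of library sizes.

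Counts were filtered with edgeR's filterByExpr, scaled by the trimmed mean of M-values and fitted with edgeR 4.0.16 (quasi-likelihood, R 4.3.3) to 4 group means over all 10 libraries, with Benjamini-Hochberg adjustment over all 18450 genes and a threshold of 0.05. Groups came from the labels. The script was tested on simulated data. DESeq2 1.42.0 and limma 3.58.1 (voom), other scaling factors, other filters, each experiment alone, a replicate block, an interferon term and each library left out were alternatives. CPM are counts per 1000000 reads of the scaled library size; log2 CPM used a prior count of 2.

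All 9 members were named, with PHF10 and MYC, up to 3 called genes per list and comparison, and 3 nearest genes for each member. All called genes were named for the substrates in the PHF10 comparison and for the dedifferentiated melanoma markers. Members, lists and tests were chosen with earlier results of these data known.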

Additional observations from a re-analysis of the deposited data

Results flagged for a closer look

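In the group of 4 PHF10 knockdown libraries, TIMP1 in library 2 was at 772 CPM against 609 to 631 CPM in the other libraries. Its gap to the nearest library was 0.87 of the range of the group, above Dixon's 95% critical value for 4 samples. Of 20 genes tested this way in that group 1 was flagged, and chance flags about 1 in 20. TIMP1 in all 4 knockdown libraries was above both controls.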

How the results depend on the processing

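Of 693 values of the 9 genes under other settings, 613 kept direction and side of the threshold, 38 newly passed it, 37 no longer passed and 5 changed sign. The call of MMP15 in the PHF10 comparison and those of MMP9, MMP14 and MMP15 between the controls were kept in every setting run. The sign changes were TIMP3 in the PHF10 comparison, 0.01 with upper-quartile scaling and -0.37 to 0.21 over libraries left out, and MMP9 there, -0.08 to 0.31 over libraries left out; neither was called. The cause was not tested.

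Members called higher in the PHF10 comparison numbered 1 as reported (TIMP1) and 0 with experiment 1 alone. DESeq2, upper-quartile scaling and the interferon term called 3, with MMP2 and MMP14 added. No filter also called 3, with MMP1 and MMP2 added. Limma and the strict filter called 2, with MMP14 added, and the replicate block 2, with MMP2 added. MMP2 was also added without PHF10 knockdown library 1. Members called lower in that comparison numbered 2 with no filter, the interferon term or the replicate block, with MMP8 added to MMP15. In the labelled MYC comparison, 4 higher and 4 lower were called with experiment 2 alone, and 0 to 1 higher and 0 to 2 lower over libraries left out. For the difference of both effects, 3 were called higher with DESeq2 or the interferon term and 4 with no filter. Leaving out a control of experiment 1 or any library of experiment 2 leaves 1 library in a group. In those fits most calls of the difference over all genes were lost. Over libraries left out, the log2 difference was 2.54 to 2.93 for MMP9 and -1.50 to -1.24 for MMP15. Between the controls, 5 were called higher and 3 lower with no filter (TIMP3 newly lower), and 2 to 5 higher and 1 to 2 lower over libraries left out, 5 without PHF10 knockdown library 1.

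Replicate numbers are not stated to pair samples, and deviations of same-numbered libraries correlated at 0.48 and -0.30 in experiment 1 and -0.03 in experiment 2. The replicate block adds a term for each further replicate number of an experiment, which leaves little to estimate the spread from. PHF10 knockdown libraries 3 and 4 have no control of the same number, so with the block the PHF10 effect rests on libraries 1 and 2. Calls lost with the block are therefore hard to read. With the replicate block, 0 members were called in the labelled MYC comparison and 0 for the difference (adjusted p = 0.0736 for MMP9 and 0.0765 for MMP15), where 0 and 0 genes and 1 and 0 genes of all tested were called higher and lower; without the block these were 52 and 39, and 48 and 23.

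Over all genes, the PHF10 comparison called 508 higher and 661 lower, against 973 and 1080 with DESeq2, 1135 and 1237 with no filter, 1073 and 1394 with the interferon term, 78 and 136 without control 1 and 68 and 151 without control 2. The labelled MYC comparison called 327 and 328 with DESeq2, 130 and 81 with limma, 453 and 458 with no filter, and 0 and 0 without any 1 library of experiment 2. Calls higher and lower in the PHF10 comparison were 627 and 574 with upper-quartile scaling and 441 and 648 with limma. They were 584 and 673 with the strict filter and 366 and 503 with the replicate block. For the difference, DESeq2 called 345 and 243 genes, no filter 585 and 333 and the interferon term 284 and 205. Counts with DESeq2 or no filter are out of 39441 genes, those with the strict filter out of 14863 and those of the main fit out of 18450. Between the controls, no filter gave 2090 and 1709, and leaving out PHF10 knockdown library 1 gave 1894 and 1534. MMP9 in experiment 1 and MMP1 in its controls rest on 31 to 66 reads, which limits their precision.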
